A study of Mus musculus with 12 samples.

Results

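This report describes 10 genes of the cadherin switch and of epithelial to mesenchymal transition, out of 24736 genes in the deposited table. They were chosen by name, as the cadherins Cdh1, Cdh2 and Cdh11, the transcription factors Snai1, Snai2, Twist1, Zeb1 and Zeb2, the intermediate filament gene Vim and the splicing regulator Esrp1. All 10 passed the filter on low counts and were tested. Expression was measured by poly(A) RNA sequencing of 12 cultures of differentiating mouse embryonic stem cells, collected at 72 h, with 3 biological replicates in each of 4 groups. Cells were grown throughout with FGF at 10 ng/ml and with LGK974 at 5 µM, a compound that stops cells from secreting WNT ligands.

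EpiLCs (epiblast-like cells) were wild-type (WT) cells that received nothing else. CEpiLCs (caudal epiblast-like cells) were WT cells given CHIR99021, a GSK3 inhibitor that activates WNT signalling, from day 2 to day 3. SOX2-OFF and SOX2-ON cells received CHIR99021 over the same day and came from the SOX2 TetON line, labelled Sox2-/-, in which the endogenous Sox2 gene was ablated and Sox2 was expressed from a doxycycline-dependent transgene at the Hprt locus. SOX2-ON cells received doxycycline at 1 µg/ml, which was taken away from SOX2-OFF cells. These 2 groups thus shared a line and differed in doxycycline as well as in SOX2. Every comparison of a TetON group with EpiLCs or CEpiLCs also compared the derived line with WT cells, and no TetON culture without CHIR99021 was analysed here. Stem cells had been propagated on fibroblast feeders, which were removed by plating before differentiation.

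Classical cadherins join neighbouring cells through their extracellular domains and bind catenins inside the cell. In epithelial to mesenchymal transition, as at the primitive streak, E-cadherin (Cdh1) gives way to N-cadherin (Cdh2). SNAIL, ZEB and TWIST proteins bind E-box sequences and repress epithelial genes, while ESRP proteins maintain epithelial forms of spliced transcripts.

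Sox2 was measured first as a check of the labels. Its reads can come from the transgene or from the edited endogenous gene, and gene totals do not tell these apart. Its level in TPM, a measure of transcript abundance scaled for transcript length and library depth, averaged 137 ± 29.7 (SD, n = 3) in EpiLCs, 10.4 ± 3.01 in CEpiLCs, 16.5 ± 4.48 in SOX2-OFF cells and 187 ± 24.0 in SOX2-ON cells. SOX2-OFF cells, though labelled Sox2-/- and without doxycycline, still had Sox2 reads, at 0.65 ± 0.24 on the log2 scale above CEpiLCs (SE, edgeR adjusted p = 0.0367). In SOX2-ON cells Sox2 was 3.44 ± 0.22 above SOX2-OFF cells on that scale (SE, edgeR adjusted p = 3.11e-07). Library totals ran from 10408252 to 27337740 expected counts. The shallowest library of all was CEpiLC replicate 3, followed by SOX2-OFF replicate 3 at 11306400. The 5 markers of epiblast-like cells summed to 2360 to 2778 TPM in EpiLCs and 822 to 1170 TPM in CEpiLCs. The 6 markers of caudal epiblast and streak summed to 2.07 to 3.17 TPM in EpiLCs, 1394 to 1547 in CEpiLCs, 892 to 916 in SOX2-OFF cells and 235 to 286 in SOX2-ON cells. The 6 TetON libraries stood apart from the WT libraries in chromosome 8, where the median of 480 genes with an average of at least 4 log2 CPM was higher by 0.62 on the log2 scale in SOX2-OFF cells and by 0.59 in SOX2-ON cells than in CEpiLCs. Chromosomes 6 and 11 were shifted too, by 0.57 and -0.52 in SOX2-OFF cells against CEpiLCs, and carry none of the 10 genes, whereas Cdh1 and Cdh11 lie on chromosome 8. CEpiLC replicate 3 and SOX2-OFF replicate 3 stood apart from the other replicates in the 6 markers of paraxial mesoderm, led by Msgn1, which summed to 119, 211 and 639 TPM in the 3 CEpiLC libraries and to 140, 129 and 247 TPM in the 3 SOX2-OFF libraries. Results for the 10 genes are given below also without these 2 libraries where that changes a call.

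Snai1 encodes the SNAIL repressor and had the largest change among the 10 genes in CEpiLCs against EpiLCs, so the 250 bases before its start of transcription are shown, beside those of Vim, which rose less, and of Twist1, for which no comparison passed the threshold. Of the 10 genes, 4 (Snai1, Twist1, Vim and Zeb2) had an entry in the RefSeq promoter set of assembly GRCm38.p6. The sequences run 5′ to 3′ on the strand of the gene, and capitals mark a match to the E-box CACCTG, searched on both strands (reverse complement CAGGTG).
Snai1, chr2:167537945-167538194, plus strand: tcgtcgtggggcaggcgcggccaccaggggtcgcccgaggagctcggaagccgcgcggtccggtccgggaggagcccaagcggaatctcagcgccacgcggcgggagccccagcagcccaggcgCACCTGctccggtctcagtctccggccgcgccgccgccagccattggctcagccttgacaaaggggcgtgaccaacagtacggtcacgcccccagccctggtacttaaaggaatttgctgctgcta
Vim, chr2:13574061-13574310, plus strand: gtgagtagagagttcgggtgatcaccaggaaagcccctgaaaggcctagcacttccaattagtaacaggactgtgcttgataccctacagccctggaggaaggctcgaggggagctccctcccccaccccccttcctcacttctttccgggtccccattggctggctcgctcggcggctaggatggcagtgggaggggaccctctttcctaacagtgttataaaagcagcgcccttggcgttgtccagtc
Twist1, chr12:33957421-33957670, plus strand: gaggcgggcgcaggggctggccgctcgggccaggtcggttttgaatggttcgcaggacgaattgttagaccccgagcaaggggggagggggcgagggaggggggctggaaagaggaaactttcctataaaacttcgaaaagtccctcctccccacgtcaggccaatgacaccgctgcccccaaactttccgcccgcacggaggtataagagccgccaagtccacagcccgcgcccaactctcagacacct
The Snai1 window held 1 match, which began 126 bases before the start. No match lay in the windows of Vim, Twist1 or Zeb2, and the E-box was present in 17.2% of all 32851 promoter windows. The TCF/LEF sequence CTTTGAT (reverse complement ATCAAAG), which mediates WNT responses, was in none of these windows and in 3.21% of all.

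The first comparison, CEpiLCs against EpiLCs, asks what WNT activation did to these genes in WT cells. Cdh1 and Esrp1 fell and Cdh2, Snai1, Zeb1 and Vim rose. Thus 6 of the 10 genes passed the threshold (adjusted p of at most 0.05 by edgeR's quasi-likelihood method, Benjamini-Hochberg adjusted), 4 higher and 2 lower. Of all tested genes 42.2% passed, 22.1% higher and 20.1% lower. The ranges of the groups did not overlap for 6 of the 10 genes, against 52.3% of all tested genes. The median log2 difference of the 10 genes was 0.51, against 0.01 over all tested genes. In bulk RNA a change in the share of cells that express a gene and a change in its RNA per cell cannot be told apart.

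**Figure D1:**
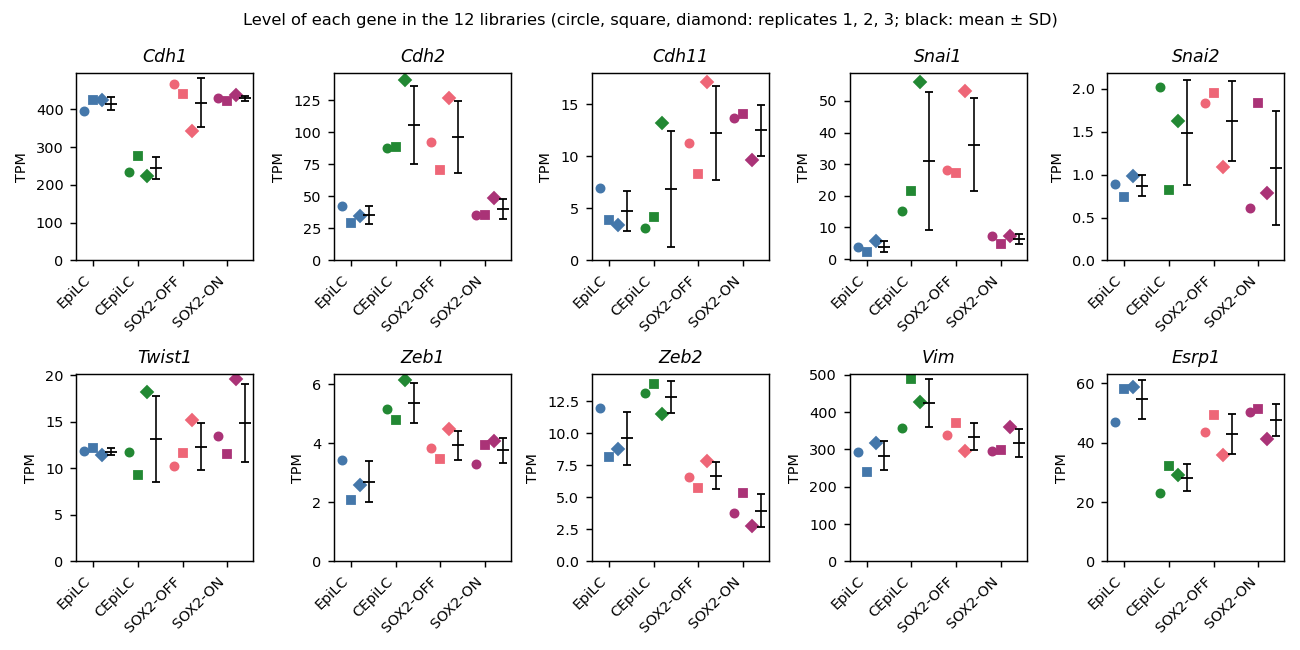
Level in TPM (vertical axes, linear from 0) of each of the 10 genes in every library of the 4 groups (horizontal axes), with replicates 1, 2 and 3 as circle, square and diamond and the mean with its SD in black. Cdh1 sat between 223 and 278 TPM in the 3 CEpiLC libraries and at 343 TPM or more in the other 9, while Cdh2 and Snai1 were high in CEpiLCs and SOX2-OFF cells.

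Cdh1, the epithelial cadherin, was listed at 395, 424 and 424.5 TPM in EpiLCs and at 235, 278 and 223 TPM in CEpiLCs. All 3 CEpiLC libraries lay below all 3 EpiLC libraries. The log2 fold change was -0.75 ± 0.09 (SE, n = 3 per group, edgeR adjusted p = 3.54e-05). Cdh2, the neural and mesenchymal cadherin, was at 42.8, 28.9 and 34.5 TPM in EpiLCs and at 87.3, 88.5 and 140 TPM in CEpiLCs, with no overlap. It rose by 1.57 ± 0.24 on the log2 scale (SE, edgeR adjusted p = 0.000187). Cdh11, a cadherin of mesenchymal tissues, was at 3.45 to 6.98 TPM in EpiLCs and at 3.14, 4.19 and 13.2 TPM in CEpiLCs, where replicate 3 alone was high. Its log2 fold change of 0.43 did not pass (adjusted p = 0.496, edgeR), and turned to -0.41 without CEpiLC replicate 3.

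Snai1 was at 3.78, 2.31 and 5.67 TPM in EpiLCs and at 15.3, 21.6 and 56.1 TPM in CEpiLCs. The groups did not overlap, and the 3 CEpiLC libraries differed widely among themselves. Snai1 rose by 2.99 ± 0.50 on the log2 scale (SE, edgeR adjusted p = 0.000411), and by 2.27 without CEpiLC replicate 3 (adjusted p = 0.000371, within 7.59e-07 to 0.00462 over all alternative settings). That library also had the highest Cdh2, Cdh11 and paraxial mesoderm marker levels of its group; their part in the Snai1 value was not tested. Snai2, which encodes the related repressor SLUG, was low in every library, from 0.61 to 2.02 TPM, with 11 to 55 expected counts per library behind these values. Its log2 fold change of 0.80 did not pass (adjusted p = 0.157, edgeR).

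Zeb1, a zinc-finger repressor, was at 3.44, 2.07 and 2.58 TPM in EpiLCs and at 5.17, 4.8 and 6.13 TPM in CEpiLCs, with no overlap. It rose by 0.98 ± 0.18 on the log2 scale (SE, edgeR adjusted p = 0.000751). Its paralogue Zeb2 was at 11.97, 8.14 and 8.74 TPM in EpiLCs and at 13.1, 13.9 and 11.5 TPM in CEpiLCs. The ranges overlapped, and the log2 fold change of 0.41 did not pass (edgeR adjusted p = 0.118). Zeb2 was the more abundant of the pair in both groups, with 0.254 to 0.295 Zeb1 TPM per Zeb2 TPM in EpiLCs and 0.346 to 0.534 in CEpiLCs. Twist1, a basic helix-loop-helix factor of mesoderm, was at 11.4 to 12.2 TPM in EpiLCs and at 9.33 to 18.3 TPM in CEpiLCs, with a log2 fold change of 0.13 (adjusted p = 0.702, edgeR).

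Vim, which encodes the intermediate filament vimentin, was at 294, 239 and 317 TPM in EpiLCs and at 358, 488 and 427 TPM in CEpiLCs. All 3 CEpiLC libraries were higher, with a rise of 0.59 ± 0.12 on the log2 scale (SE, edgeR adjusted p = 0.00188). The 12 markers of fibroblast feeders, of which Twist2 is also counted among the transcription factors below, summed to 49.1 to 66.8 TPM in EpiLCs and 71.4 to 101 TPM in CEpiLCs, with Thy1 the most abundant, and 5 of the 12 rose while none was at 0 throughout a group; their part in the Vim value was not tested. Esrp1 was at 47.2, 58.0 and 58.9 TPM in EpiLCs and at 23.2, 32.3 and 29.2 TPM in CEpiLCs, and no library overlapped. It fell by 0.94 ± 0.14 on the log2 scale (SE, edgeR adjusted p = 0.000128). These are totals per gene, so which spliced forms were made was not analysed here.

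**Figure D2:**
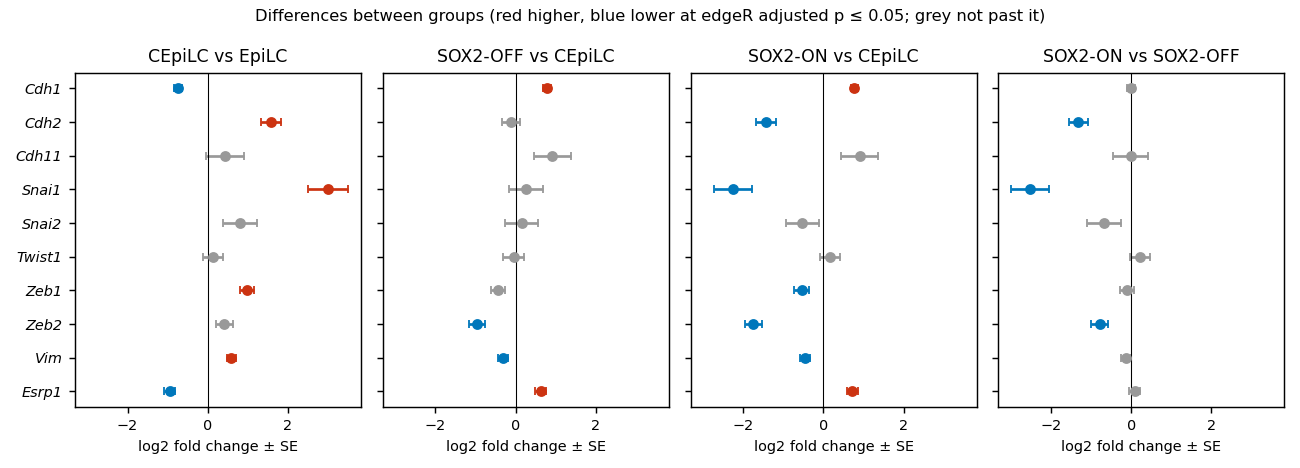
Log2 fold change of each gene with its SE (horizontal axes) in 4 comparisons of 3 against 3 libraries, with genes past an edgeR adjusted p of 0.05 in red (higher) or blue (lower) and the others in grey. Cdh1 and Esrp1 were lower in CEpiLCs than in EpiLCs, higher in both TetON groups than in CEpiLCs, and near 0 between SOX2-ON and SOX2-OFF cells, where Cdh2, Snai1 and Zeb2 were lower.

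SOX2-ON against SOX2-OFF asks what SOX2 expression did when both arms received WNT activation in the same line. Cdh2, Snai1 and Zeb2 were lower in SOX2-ON cells, and Cdh1, Esrp1, Vim and Zeb1 did not pass. Thus 3 of the 10 genes were called, all lower, when 28.8% of all tested genes were called, 14.8% higher and 14.1% lower. Ranges did not overlap for the same 3 genes, and for 43.8% of all tested genes. The median log2 fold change of chromosome 8 was 0.00091 between these groups.

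Cdh2 was at 92.6, 70.1 and 126 TPM in SOX2-OFF cells and at 35.6, 35.7 and 48.9 TPM in SOX2-ON cells. Every SOX2-ON library was below every SOX2-OFF library, and the values lay in the range of EpiLCs except for replicate 3. The log2 fold change was -1.32 ± 0.24 (SE, edgeR adjusted p = 0.00109). Snai1 was at 28.1, 27.1 and 53.1 TPM in SOX2-OFF cells and at 7.35, 4.64 and 7.43 TPM in SOX2-ON cells, again with no overlap. It fell by 2.52 ± 0.47 on the log2 scale (SE, edgeR adjusted p = 0.00137). Both genes stayed called in all 17 alternative settings, with log2 fold changes of -1.51 to -1.06 for Cdh2 and of -2.69 to -2.13 for Snai1. Paraxial mesoderm markers, which summed to 129 to 247 TPM in SOX2-OFF cells and 17.4 to 22.8 TPM in SOX2-ON cells, moved with them; their part in these results was not tested.

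Zeb2 was at 6.56, 5.70 and 7.83 TPM in SOX2-OFF cells and at 3.80, 5.30 and 2.73 TPM in SOX2-ON cells, with no overlap but a narrow gap. The log2 fold change was -0.79 ± 0.22 (SE, edgeR adjusted p = 0.0157), and the call was lost without SOX2-OFF replicate 3 (adjusted p = 0.0622, the highest over the alternative settings, from 0.00138). It was also lost without both outlying replicates (-0.66, edgeR adjusted p = 0.0591). Zeb1 was at 3.83, 3.48 and 4.47 TPM in SOX2-OFF cells and at 3.29, 3.93 and 4.06 TPM in SOX2-ON cells, which overlapped, with a log2 fold change of -0.11. SOX2-ON replicate 3 was the only one of the 12 libraries with more Zeb1 than Zeb2, at 1.49 Zeb1 TPM per Zeb2 TPM. In that library the markers of extraembryonic endoderm summed to 356 TPM, against 128 and 162 TPM in the other SOX2-ON libraries.

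Cdh1 was at 467, 441 and 343 TPM in SOX2-OFF cells and at 429, 423 and 436 TPM in SOX2-ON cells. SOX2-OFF replicate 3 was the lowest and the other SOX2-OFF libraries the highest, so the groups overlapped, with a log2 fold change of -0.01 (SE 0.09, adjusted p = 0.963, edgeR). Esrp1 was at 43.8, 49.3 and 35.8 TPM in SOX2-OFF cells and at 50.3, 51.3 and 41.4 TPM in SOX2-ON cells, with a log2 fold change of 0.09 (adjusted p = 0.679, edgeR). Vim was at 337, 370 and 296 TPM against 295, 297 and 359 TPM, with a log2 fold change of -0.13 (adjusted p = 0.459, edgeR). Snai2 (log2 fold change -0.68, adjusted p = 0.257), Cdh11 (-0.01) and Twist1 (0.22) did not pass either.

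SOX2-OFF against CEpiLCs compared cells given the same signal, with low Sox2 in both, across the WT and TetON lines. Cdh1 and Esrp1 were higher and Zeb2 and Vim lower in SOX2-OFF cells, while Cdh2 and Snai1 did not pass. These 4 of 10 genes, 2 in each direction, compare with 48.5% of all tested genes called, 23.6% higher and 24.9% lower. Ranges did not overlap for 4 of 10 genes (Cdh1, Esrp1, Zeb1 and Zeb2), against 55.3% of all tested genes. Cdh1 rose by 0.78 ± 0.09 on the log2 scale (SE, edgeR adjusted p = 1.81e-05), with all 3 SOX2-OFF libraries, at 343 TPM or more, above all CEpiLC libraries, at 278 TPM or less. Esrp1, on chromosome 4, rose by 0.63 ± 0.14 (SE, edgeR adjusted p = 0.00203), from 23.2 to 32.3 TPM in CEpiLCs to 35.8 to 49.3 TPM in SOX2-OFF cells. Zeb2 fell by 0.96 ± 0.21 (SE, edgeR adjusted p = 0.00188), from 11.5 to 13.9 TPM to 5.70 to 7.83 TPM. Neither Esrp1 nor Zeb2 overlapped between the groups. The feeder markers summed to 29.7 to 57.9 TPM in SOX2-OFF cells, below CEpiLCs, but of the 12 markers 2 were called higher, 3 lower and 7 not called. Their part in the lower Vim of these cells was not tested. Vim fell by 0.32 ± 0.12 (SE, edgeR adjusted p = 0.0422), but its ranges overlapped and 9 of 17 alternative settings lost the call, among them those without CEpiLC replicate 2, CEpiLC replicate 3, SOX2-OFF replicate 1 or SOX2-OFF replicate 3. Without both outlying replicates Vim was at -0.24 and did not pass (edgeR adjusted p = 0.221).

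Cdh2 had a log2 fold change of -0.12 (adjusted p = 0.706, edgeR) and Snai1 one of 0.27 (adjusted p = 0.627, edgeR). The Snai1 value moved with the libraries left out. It was 1.00 without CEpiLC replicate 3 (adjusted p = 0.0235, the lowest over the alternative settings, up to 0.931), -0.06 without CEpiLC replicate 1, -0.13 without SOX2-OFF replicate 3, and 0.61 without both outlying replicates (adjusted p = 0.1002). Zeb1 was lower in all 3 SOX2-OFF libraries, with a log2 fold change of -0.44 that missed the threshold (adjusted p = 0.0565, edgeR) and passed it in 7 of 17 alternative settings. Cdh11 was at 11.3, 8.29 and 17.2 TPM in SOX2-OFF cells, with a log2 fold change of 0.92 (adjusted p = 0.119, edgeR) that reached 1.76 and passed without CEpiLC replicate 3 (adjusted p = 0.00106, the lowest over the alternative settings, up to 0.599). Without both outlying replicates Cdh11 was at 1.44 and passed too (edgeR adjusted p = 0.00284). These values carry the shift of chromosome 8, and with that shift removed Cdh11 did not pass. Its lowest log2 fold change over the alternative settings was 0.32. Twist1 and Snai2 differed by -0.05 and 0.15 on the log2 scale and did not pass.

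The Cdh1 rise has to be read beside the rest of its chromosome. Cdh1 lies at 8:106603350-106670247 and Cdh11 at 8:102632095-102785493 (GRCm38.p6). Of 81 genes with an average of at least 4 log2 CPM within 10 Mb of Cdh1, 77 were higher in SOX2-OFF cells than in CEpiLCs, with a median log2 fold change of 0.62, and 79 were higher in SOX2-ON cells, with a median of 0.56. When each library was corrected for the median of its chromosomes, the log2 fold change of Cdh1 was 0.18 in SOX2-OFF cells (edgeR adjusted p = 0.169) and 0.17 in SOX2-ON cells (edgeR adjusted p = 0.181), so neither passed. In each of the other 16 settings both passed. Esrp1 and Zeb2 kept their calls under this correction, while Vim lost its call in SOX2-OFF cells. How much of the Cdh1 value belongs to the line and how much to its treatment cannot be told apart here. Markers of extraembryonic endoderm, an epithelial tissue, summed to 8.95 to 21.4 TPM in CEpiLCs, 305 to 356 TPM in SOX2-OFF cells and 128 to 356 TPM in SOX2-ON cells, and 9 of 10 tested markers were higher in each TetON group, with Dab2 and Cubn the most abundant. Hnf4a and Ttr were at 0 in all CEpiLC libraries, and the markers' part in the Cdh1 and Esrp1 values was not tested. The paper reports increased anterior mesoderm and endoderm genes in SOX2-OFF cells. Which kind of endoderm these markers reflect was not tested.

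**Figure D3:**
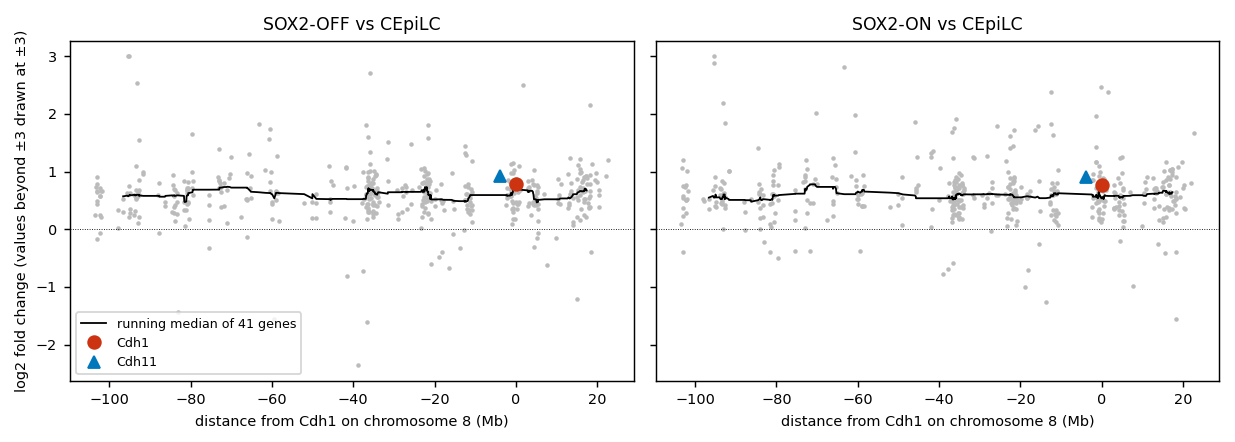
Log2 fold change (vertical axis, values beyond 3 drawn at 3) of genes on chromosome 8 against their distance from Cdh1 in Mb (horizontal axis), for SOX2-OFF and SOX2-ON cells against CEpiLCs, with a running median of 41 genes in black. The running median stayed above 0 wherever it was drawn, which leaves out the ends of the chromosome, where fewer than 41 genes remain. Cdh1 (circle, 0.78 and 0.77) and Cdh11 (triangle, 0.92 and 0.90) lay among neighbours that were higher as well.

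SOX2-ON against CEpiLCs compared high with low Sox2 under the same signal and also compared the lines. Against CEpiLCs, Cdh1 and Esrp1 were higher and Cdh2, Snai1, Zeb1, Zeb2 and Vim lower in SOX2-ON cells. These 7 of 10 genes, 2 higher and 5 lower, compare with 56.5% of all tested genes called, 27.9% higher and 28.6% lower. The same 7 genes did not overlap between the groups, as did not 59.9% of all tested genes. Cdh1 rose by 0.77 ± 0.09 (SE, edgeR adjusted p = 1.44e-05) before the correction for its chromosome, and Esrp1 by 0.72 ± 0.14 (SE, edgeR adjusted p = 0.000629) on the log2 scale. For Cdh2 the log2 fold change was -1.43 ± 0.24 (SE, adjusted p = 0.000206, edgeR) and for Snai1 -2.25 ± 0.47 (SE, adjusted p = 0.00121), or -1.17 and -1.52 without CEpiLC replicate 3. Zeb2 fell by 1.75 ± 0.21 (SE, edgeR adjusted p = 1.62e-05) and was the gene with the smallest adjusted p among those that fell. Vim was at -0.46 ± 0.12 (SE, adjusted p = 0.00639, edgeR) and Zeb1 at -0.55 ± 0.18 (SE, adjusted p = 0.0176) on the log2 scale, and Zeb1 lost its call without CEpiLC replicate 3 or without SOX2-ON replicate 1. Zeb1 also lost it without both outlying replicates (-0.44, edgeR adjusted p = 0.0579). Cdh11, with a log2 fold change of 0.90, passed without CEpiLC replicate 3, as in SOX2-OFF cells. Without both outlying replicates Cdh11 was at 1.75 and passed too (edgeR adjusted p = 0.000345). With the shift of chromosome 8 removed Cdh11 did not pass here either. Its lowest log2 fold change over the alternative settings was 0.31.

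EpiLCs received no CHIR99021, so the TetON groups differed from them in line and in signal. In SOX2-OFF cells 5 of 10 genes passed, 4 higher and 1 lower, when 62.1% of all tested genes did, 31.5% higher and 30.6% lower. Ranges did not overlap for 6 of 10 genes, these 5 and Snai2, against 69.2% of all tested genes. Snai1 (log2 fold change 3.26, adjusted p = 8.91e-05, edgeR), Cdh2 (1.46, adjusted p = 0.000149), Cdh11 (1.35, adjusted p = 0.0220) and Zeb1 (0.55, adjusted p = 0.0193) were higher and Zeb2 (-0.55, adjusted p = 0.0353) lower. In SOX2-ON cells 2 of 10 passed and did not overlap, when 59.8% of all tested genes passed, 30.7% higher and 29.1% lower, and 66.1% did not overlap, with Cdh11 higher (log2 fold change 1.34, adjusted p = 0.0230, edgeR) and Zeb2 lower (-1.33, adjusted p = 0.000132). Snai1 and Cdh2 had log2 fold changes of 0.74 (adjusted p = 0.258, edgeR) and 0.14 (adjusted p = 0.634) in SOX2-ON cells. In SOX2-OFF cells the Zeb2 call was lost without EpiLC replicate 1 (adjusted p = 0.187), SOX2-OFF replicate 1 (0.0913) or SOX2-OFF replicate 2 (0.136), the range over all alternative settings being 0.0130 to 0.187. The Zeb1 call was lost there without EpiLC replicate 2 (adjusted p = 0.0893), EpiLC replicate 3 (0.0573) or SOX2-OFF replicate 3 (0.0745), and without both outlying replicates (0.0651), with a range of 0.00209 to 0.0893. The Cdh11 calls were lost in both groups once the shift of chromosome 8 was removed (adjusted p = 0.184 and 0.193), and also without EpiLC replicate 2 or without EpiLC replicate 3, without SOX2-OFF replicate 3 in the first group and without SOX2-ON replicate 1 or 2 in the second. Without both CEpiLC replicate 3 and SOX2-OFF replicate 3 Snai1 (adjusted p = 0.0407, edgeR) and Zeb1 (adjusted p = 0.0436) passed in SOX2-ON cells, and in SOX2-OFF cells Vim passed (adjusted p = 0.0498) and Zeb1 did not (adjusted p = 0.0651). Neither library belongs to SOX2-ON cells or EpiLCs. The log2 fold changes between those groups stayed at 0.74 for Snai1 and 0.44 for Zeb1, and only the adjusted p, from a fit shared by all groups, moved. Cdh1 was within 0.03 of EpiLCs on the log2 scale in both TetON groups, and under the same correction it was lower than in EpiLCs, with log2 fold changes of -0.58 in SOX2-OFF cells (edgeR adjusted p = 0.000257) and -0.59 in SOX2-ON cells (edgeR adjusted p = 0.000246).

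Levels in TPM are scaled for transcript length, so the 2 main cadherins could be set against each other. Cdh1 exceeded Cdh2 in every library. The ratio of Cdh1 to Cdh2 TPM was 12.1 ± 2.73 (SD, n = 3) in EpiLCs, 2.47 ± 0.796 in CEpiLCs, 4.68 ± 1.81 in SOX2-OFF cells and 10.95 ± 1.75 in SOX2-ON cells. EpiLC and SOX2-ON libraries overlapped, from 9.22 to 14.7 and from 8.93 to 12.1, and so did CEpiLC and SOX2-OFF libraries, from 1.59 to 3.14 and from 2.72 to 6.28, while the former pair lay above the latter. With chromosome medians removed, the mean log2 ratio was 3.86 in EpiLCs, 1.55 in CEpiLCs, 1.87 in SOX2-OFF cells and 3.16 in SOX2-ON cells. On that scale EpiLCs, from 3.51 to 4.16, lay above SOX2-ON cells, from 2.86 to 3.34, without overlap. Over 18 classical cadherins, Cdh1 took 79.7 to 83.4% of the summed TPM in EpiLCs, 53.6 to 68.3% in CEpiLCs, 65.1 to 79.3% in SOX2-OFF cells and 75.9 to 76.5% in SOX2-ON cells. The share of Cdh2 was 5.68 to 8.64%, 21.8 to 33.7%, 12.6 to 24.0% and 6.34 to 8.50% in the same order of groups. Cdh3, which encodes P-cadherin, took 10.1 to 11.6% in SOX2-ON cells and at most 3.92% elsewhere. These shares were not corrected for chromosome medians. Cdh1, Cdh3 and Cdh11 lie on chromosome 8, so the shares in both TetON groups carry the shift of that line.

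**Figure D4:**
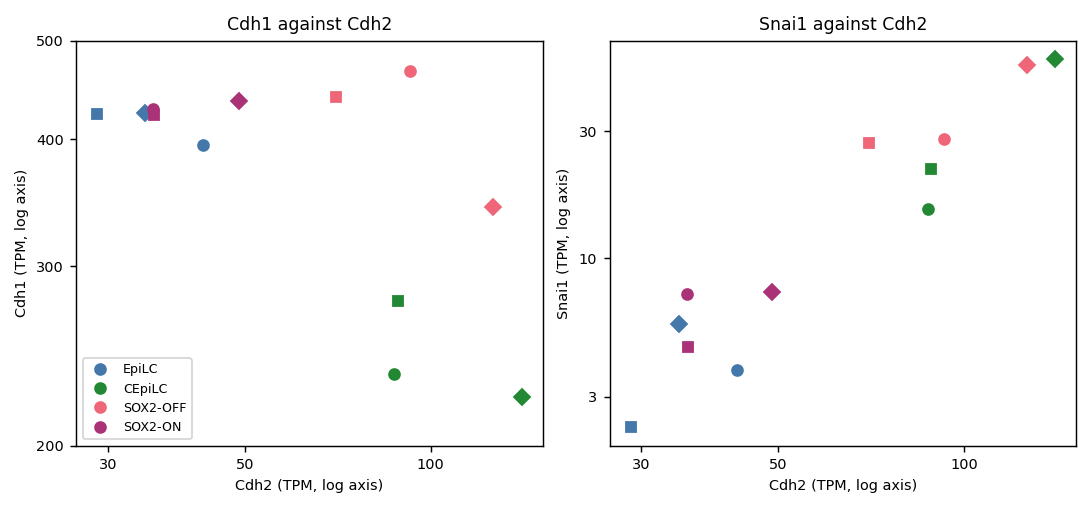
Cdh1 (left) and Snai1 (right) against Cdh2 in each of the 12 libraries, in TPM on log axes, with groups by colour and replicates 1, 2 and 3 as circle, square and diamond. SOX2-OFF libraries had Cdh2 and Snai1 near those of CEpiLCs but Cdh1 between 343 and 467 TPM, where CEpiLCs had 223 to 278 TPM.

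For Cdh1, Cdh2 and Snai1, the genes with the most alike pattern were sought by Pearson correlation of log2 CPM over the 12 libraries, as a description. Closest to Cdh1 were Hk1 and Rab3gap1 (r = 0.968 each) and Rap1gds1 (r = 0.961), out of 8305 candidates and none of them on chromosome 8. Closest to Cdh2 were Arl4d (r = 0.968), Gpc6 (r = 0.963) and Slc43a1 (r = 0.962). Closest to Snai1 were Slc43a1 (r = 0.973), Mixl1 (r = 0.970), a homeobox gene of the primitive streak, and Antxr1 (r = 0.962). The 12 libraries share their groups and their 2 outlying replicates, so these values are not independent of the comparisons above.

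Other genes of the same biology were counted in lists written for this work. Of all tested genes 22.1% rose and 20.1% fell in CEpiLCs against EpiLCs. In SOX2-ON against SOX2-OFF cells 14.8% rose and 14.1% fell. Against CEpiLCs 23.6% rose and 24.9% fell in SOX2-OFF cells, and 27.9% rose and 28.6% fell in SOX2-ON cells. Among classical cadherins other than the 3 above, 11 of 15 were tested. In CEpiLCs against EpiLCs 1 rose and 6 fell, led by Cdh9 (-4.28), Cdh22 (-2.86) and Cdh12 (-2.81 on the log2 scale), and the rise of Cdh20 (0.92) was lost without CEpiLC replicate 3 and SOX2-OFF replicate 3 (adjusted p = 0.107, edgeR). In SOX2-ON against SOX2-OFF cells Cdh3 (1.60), Cdh8 (1.53) and Cdh4 (1.35, which encodes R-cadherin) rose and Cdh20 (-2.91) and Cdh24 (-0.53) fell. Cdh3 was at 21.7, 16.7 and 20.7 TPM in SOX2-OFF cells and at 63.1, 64.4 and 57.8 TPM in SOX2-ON cells, the reverse of Cdh2. Cdh3 lies on chromosome 8 too, and against CEpiLCs its rise of 0.87 in SOX2-OFF cells was lost with the shift removed (0.27, edgeR adjusted p = 0.202), while that of 2.47 in SOX2-ON cells was kept (1.87, edgeR adjusted p = 1.46e-06).

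Catenins and partners link cadherins to the actin cytoskeleton, and all 8 were tested. From EpiLCs to CEpiLCs 5 fell and none rose, led by Vcl (vinculin, -0.70), Jup (plakoglobin, -0.56) and Afdn (afadin, -0.36). In SOX2-ON against SOX2-OFF cells 4 fell, led by Jup (-0.94), Vcl (-0.69) and Ctnnd1 (p120 catenin, -0.28), and Ctnna2 (1.3), an alpha-catenin, rose. In SOX2-OFF cells against CEpiLCs 4 rose, led by Jup (0.73), Ctnna1 (0.57) and Ctnnd1 (0.54), and 3 fell, led by Ctnna2 (-0.95), Ctnnd2 (-0.71) and Ctnnb1 (-0.18), and Jup, on chromosome 11, was at 1.25 with the chromosome shift removed. Ctnna2 and Ctnnb1 lost their calls without both outlying replicates (adjusted p = 0.106 and 0.0948, edgeR).

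Of 12 other transcription factors of this transition, all were tested. Of these, 6 rose in CEpiLCs against EpiLCs, led by Foxc1 (3.86), Gsc (2.17) and Prrx1 (1.45), and Snai3 (-0.91) fell. Foxc1 was at 2.61 without both outlying replicates. In SOX2-ON against SOX2-OFF cells 3 fell, namely Gsc (-5.11), Foxc1 (-2.93, or -2.24 without both outlying replicates) and Tcf4 (-0.39), and Tcf12 (0.30) rose. Gsc, a homeobox gene of the anterior streak, was at 10.7, 9.22 and 14.1 TPM in SOX2-OFF cells and at 0.21, 0.33 and 0.45 TPM in SOX2-ON cells, and was higher in SOX2-OFF cells than in CEpiLCs too, at 1.98 on the log2 scale (edgeR adjusted p = 0.00116). Foxc1, a forkhead gene of paraxial mesoderm, was at 3.18, 5.60 and 23.2 TPM in CEpiLCs, where replicate 3 was again the highest.

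Epithelial regulators, a list of 10 that includes Cdh1 and Esrp1, had 9 members tested. From EpiLCs to CEpiLCs 4 fell, among them Ovol2 (-1.07) and Grhl2 (-0.76), which encode transcription factors that maintain epithelia, and Grhl3 (3.08) rose. Against CEpiLCs, 6 rose and none fell in SOX2-OFF cells, and 8 rose and none fell in SOX2-ON cells (5 and 7 with the chromosome shift removed), when 23.6% and 27.9% of all tested genes rose. The median log2 fold change of the list was 0.78 and 1.47, beside medians of -0.013 and -0.012 over all tested genes. The 0.78 is the value of Cdh1 itself, a gene of chromosome 8 that was at 0.18 with the shift removed (edgeR adjusted p = 0.169). Both medians are without that correction. The 9 of 10 extraembryonic endoderm markers named above rose in both comparisons as well, with median log2 fold changes of 5.61 and 5.19, and their part in these counts was not tested. The largest rises were those of Esrp2 (2.32), Rbm47 (2.07) and Elf3 (1.97) in SOX2-OFF cells and of Esrp2 (2.19), Ovol2 (1.84) and Rbm47 (1.65) in SOX2-ON cells. Esrp2, a paralogue of Esrp1 on chromosome 8, was at 1.2 to 2.80 TPM in CEpiLCs, 7.79 to 10.8 TPM in SOX2-OFF cells and 7.92 to 10.2 TPM in SOX2-ON cells, and kept both calls with the shift removed (1.73 and 1.60). Between SOX2-ON and SOX2-OFF cells Grhl1 (1.53) and Grhl2 (0.54) were higher, and without both outlying replicates the Grhl2 call was lost (adjusted p = 0.0576, edgeR) and Elf3 was called lower (-0.61, adjusted p = 0.0308).

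Mesenchymal effectors, a list of 10 extracellular matrix, contractile and protease genes, were all tested. In CEpiLCs against EpiLCs Fn1 (fibronectin, 1.44), Lgals1 (0.83) and Mmp14 (0.41) rose and Tgfbi (-1.38) and Sparc (-0.78) fell, and without both outlying replicates the Fn1 value was 0.79 and Acta2 (-1.48) and Tagln (-0.94) were called lower too. In SOX2-ON against SOX2-OFF cells 6 fell and none rose, led by Fn1 (-2.02), Tagln (-2.0) and Itga5 (-1.01), the integrin subunit of the fibronectin receptor. Of all tested genes 14.1% fell and 14.8% rose there. Fn1 was at 51.1, 49.5 and 71.8 TPM in EpiLCs, 90.9, 107 and 263 TPM in CEpiLCs, 390, 274 and 402 TPM in SOX2-OFF cells and 88.6, 99.6 and 87.3 TPM in SOX2-ON cells. All 3 SOX2-OFF libraries were above every other library. Against CEpiLCs, Sparc (1.56), Fn1 (1.22) and Itga5 (1.01) were among 4 genes that rose in SOX2-OFF cells, and Acta2 (-2.39) and Tgfbi (-1.43) fell. Without both outlying replicates Acta2 was at -1.60 (adjusted p = 0.0485, edgeR) and 3 genes fell, the third being Mmp2 (-0.34). In SOX2-ON cells 2 rose, S100a4 (2.48) and Sparc (0.96), and 6 fell, led by Acta2 (-3.37), Tagln (-2.36) and Mmp2 (-1.26). Without both outlying replicates 5 fell, Acta2 was at -2.68 and the fall of Fn1 (-0.80) was lost (-0.16, edgeR adjusted p = 0.428). Mmp2 lies on chromosome 8, and its values against CEpiLCs carry the shift of that chromosome. With the shift removed 4 genes of the list were higher and 3 lower in SOX2-OFF cells than in CEpiLCs. In SOX2-ON cells 2 were higher and 6 lower.

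**Figure D5:**
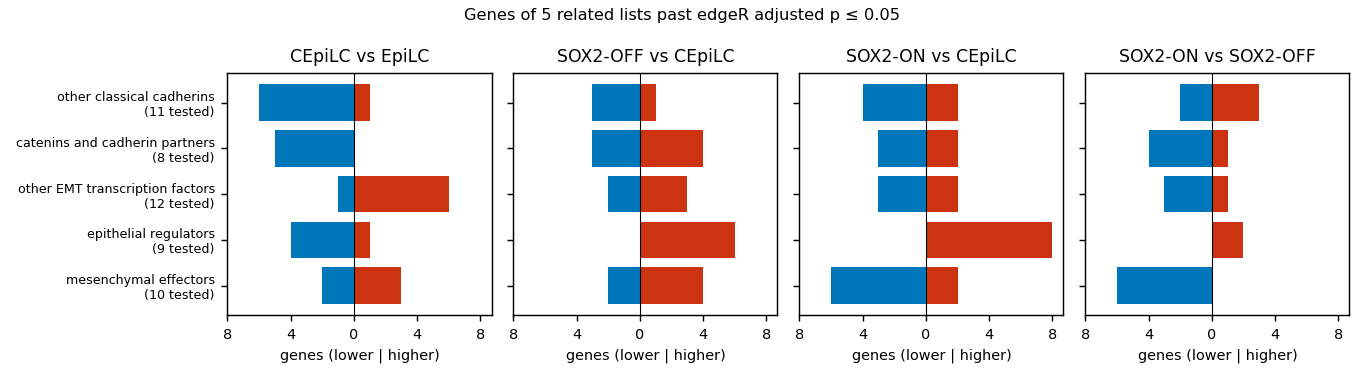
Number of genes past an edgeR adjusted p of 0.05 (horizontal axes, lower to the left in blue and higher to the right in red) in 5 related lists and 4 comparisons of 3 against 3 libraries. Epithelial regulators were called in 1 direction, higher, in both TetON groups against CEpiLCs, and 6 of 10 mesenchymal effectors were lower in SOX2-ON than in SOX2-OFF cells. Of all tested genes 23.6% in SOX2-OFF and 27.9% in SOX2-ON cells were higher than in CEpiLCs. Between SOX2-ON and SOX2-OFF cells 14.1% were lower in the former.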

How the data were processed

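Per the labels, poly(A) RNA was sequenced as single-end, strand-specific reads of 76 bases on 12 samples, grouped by title. Per the submitters' processing notes, the authors used cutadapt 1.16, STAR 2.5.2a, RSEM 1.3.0, DESeq2 1.16.1 and the mouse assembly mm10. The deposited table holds RSEM expected counts, which need not be whole. It also holds TPM values as the authors obtained them from RSEM, scaled for transcript length and depth.

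After rounding to whole numbers, expected counts were tested with edgeR 4.0.16 (R 4.3.3, limma 3.58.1): TMM scaling, filterByExpr (14196 of 24736 genes kept), 1 quasi-likelihood model of 12 libraries without covariates, Benjamini-Hochberg adjustment over all tested genes and a threshold of 0.05. Standard errors came from the F statistic. TPM served for levels only. The reads carry no molecular identifiers. Gene positions and promoter sequences are from RefSeq, GRCm38.p6, the assembly also called mm10. For the chromosome correction, medians were taken over genes with at least 4 log2 CPM.

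Same-numbered EpiLC and CEpiLC libraries deviated together from their group means (r of 0.120, 0.132 and 0.103 across genes), so the numbers may pair these samples, by the values alone. The main model has no block, and the block is among the alternatives. In each of the other 5 comparisons at least 1 of 3 correlations was under 0.1. Some there were higher than between EpiLCs and CEpiLCs. Against CEpiLCs, replicates 2 and 3 had r of 0.179 and 0.173 in SOX2-OFF cells and of 0.201 and 0.163 in SOX2-ON cells. Libraries with unlike numbers were not correlated, so whether the numbers pair samples was not tested. Replicates of a group differed by more than sampling noise (chi-square per degree of freedom of 7.54 to 42.6). The alternatives were RLE scaling, library size alone, no filter, a filter of 1 CPM in 3 samples, DESeq2 1.42.0, limma-voom, a fit of the 6 libraries compared, a replicate block, a threshold of 0.01, removal of chromosome shifts and leaving out each replicate. Leaving out CEpiLC replicate 3 and SOX2-OFF replicate 3 together was chosen after seeing the data. Members and lists were chosen with earlier results of these data known. Named genes were Sox2, the members, up to 3 genes a direction with the largest called changes per list and comparison, and the 3 genes most correlated with Cdh1, Cdh2 and Snai1; the TPM values given for genes of the lists were picked after they were seen.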

Additional observations from a re-analysis of the deposited data

How the results depend on the processing

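Each of the 60 fold changes of the 10 genes was recomputed in 17 alternative settings. Of these 1020 values, 906 kept their direction and their side of the threshold, 38 lost the call, 38 gained one and 38 changed sign. All 6 calls in CEpiLCs against EpiLCs were kept in every setting, and the replicate block changed no member call there. Elsewhere the block cost Vim its call in SOX2-OFF cells against CEpiLCs and gained Zeb1 one, and gained calls for Esrp1 in SOX2-OFF and Zeb1 in SOX2-ON cells against EpiLCs. Snai2 had 11 to 55 expected counts per library, which limits the precision of its values.

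The count of members called moved in comparisons with EpiLCs. For SOX2-OFF cells it was 8 in a fit of the 6 libraries compared and 2 at a threshold of 0.01, and 3 to 5 when single replicates were left out, while all genes called numbered 8819 in the main test and, in the same order, 8878, 7056, and 8026 to 8264. For SOX2-ON cells it was 1 at 0.01, 4 without both outlying replicates and 1 to 3 when single replicates were left out, while all genes called numbered 8483 in the main test and, in the same order, 6691, 8705, and 7689 to 8016. Neither outlying replicate belongs to SOX2-ON cells or EpiLCs, so leaving both out acted there only through the shared fit. Over all genes, a threshold of 0.01 called 3968 genes in CEpiLCs against EpiLCs and 2437 in SOX2-ON against SOX2-OFF cells.

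Signs changed for log2 fold changes that were not called in the main test. Under other settings than leaving out replicates, Twist1 was 0.014 in SOX2-OFF cells against CEpiLCs with limma-voom. In SOX2-ON against SOX2-OFF cells Cdh1 was 0.013 by library size alone, and Cdh11 was 0.012 by library size alone, 0.084 with limma-voom and 0.073 with the replicate block. In SOX2-OFF cells against EpiLCs Cdh1 was -0.0036 by library size alone. With the chromosome shift removed Cdh1 was -0.58 in SOX2-OFF and -0.59 in SOX2-ON cells against EpiLCs, and both then passed.

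Leaving out replicates singly, or both outlying ones together, gave these ranges of log2 fold change. In CEpiLCs against EpiLCs Cdh11 ran from -0.41 to 0.83 and Twist1 from -0.15 to 0.34. In SOX2-OFF cells against CEpiLCs Cdh2 ran from -0.37 to 0.15, Snai1 from -0.13 to 1.00, Snai2 from -0.16 to 0.54 and Twist1 from -0.26 to 0.23. In SOX2-ON cells against CEpiLCs Twist1 ran from -0.049 to 0.46. In SOX2-ON against SOX2-OFF cells Cdh1 ran from -0.12 to 0.068, Cdh11 from -0.24 to 0.31, Twist1 from -0.010 to 0.40 and Esrp1 from -0.017 to 0.20. In SOX2-OFF cells against EpiLCs Cdh1 ran from -0.045 to 0.14 and Twist1 from -0.095 to 0.21. In SOX2-ON cells against EpiLCs Cdh1 ran from -0.0051 to 0.041, Cdh2 from -0.0098 to 0.31 and Snai2 from -0.33 to 0.56. The cause of these changes, with the chromosome correction or with replicates left out, was not tested.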
